A study of Mus musculus with 2 samples.

Results

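Ezh2 is 1 of the 479 genes read in every cell of 2 Xenium In Situ sections of mouse small cell lung cancer, a method that counts single transcripts under a microscope and assigns them to segmented cells. Its level was described by cell type and by cycling state. Neuroendocrine (NE) tumor cells were gated as cells with 4 or more transcripts of Chga, Chgb, Scg5, Snap25 and Celf3 summed (NE-gated cells), and stroma and other lung cells as cells with 0 to 1 (NE-low cells). Cells with 2 or more transcripts of Mki67 and Top2a summed were called cycling, and cells with 0 not cycling, or resting. Ezh2 was not used by either gate. RPR2 tumors carried lox alleles of Rb1, Trp53 and Rbl2 that adenoviral Cre deleted after instillation into the trachea of 10-week-old mice on the C57BL/6 background, and CRPR2 tumors carried a germline Cracd knockout besides the same 3 deletions. The Cracd knockout was thus in tumor and stroma alike, and the viral deletions were in the cells that took up the virus, which was not restricted to a cell type. The sections shared the loss of Rb1, Trp53 and Rbl2 and came from a single FFPE block on 1 slide. With 1 section per genotype there is no replicate, no test between genotypes was possible, and genotype and section cannot be told apart. The question put to the comparison was whether the level of Ezh2 in tumor cells differed where Cracd was lost.

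Ezh2 encodes the methyltransferase of Polycomb repressive complex 2 (PRC2), which places the methyl marks on histone H3 lysine 27 that keep genes silent. In normal tissue it is known to be high in dividing progenitors and low in resting differentiated cells. Its promoter is a known target of E2F factors, which the retinoblastoma proteins Rb1 and Rbl2 hold in check. EZH2 is abundant in small cell lung cancer, a neuroendocrine tumor.

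The promoter windows below are shown since Ezh2 moved with the cycling genes in these sections. They run from 250 bases before to 50 bases after the start of the RefSeq transcript, are written 5′ to 3′ on the gene's own strand, and come from build GRCm38.p6. Capitals mark E2F words (TTTGGCGC, TTTCCCGC, TTTCGCGC or TTTGCCGC) and the cell cycle homology word TTTGAA, searched on both strands. The windows are Ezh2, chr6:47594981-47595280 on the minus strand, Pclaf, chr9:65890073-65890372 on the plus strand, Top2a, chr11:99024140-99024439 on the minus strand, and Mki67, chr7:135716330-135716629 on the minus strand.
Ezh2: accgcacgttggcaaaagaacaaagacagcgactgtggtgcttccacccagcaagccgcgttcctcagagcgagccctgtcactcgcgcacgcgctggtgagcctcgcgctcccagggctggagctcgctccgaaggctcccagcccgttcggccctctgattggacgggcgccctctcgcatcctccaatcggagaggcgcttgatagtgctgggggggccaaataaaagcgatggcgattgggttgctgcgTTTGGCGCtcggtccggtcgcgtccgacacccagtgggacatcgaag
Pclaf: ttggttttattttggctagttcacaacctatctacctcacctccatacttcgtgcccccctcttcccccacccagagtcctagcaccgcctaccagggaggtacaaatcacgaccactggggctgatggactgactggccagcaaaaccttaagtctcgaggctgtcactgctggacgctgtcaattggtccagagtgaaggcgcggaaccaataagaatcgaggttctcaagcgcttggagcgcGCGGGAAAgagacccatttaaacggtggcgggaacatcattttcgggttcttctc
Top2a: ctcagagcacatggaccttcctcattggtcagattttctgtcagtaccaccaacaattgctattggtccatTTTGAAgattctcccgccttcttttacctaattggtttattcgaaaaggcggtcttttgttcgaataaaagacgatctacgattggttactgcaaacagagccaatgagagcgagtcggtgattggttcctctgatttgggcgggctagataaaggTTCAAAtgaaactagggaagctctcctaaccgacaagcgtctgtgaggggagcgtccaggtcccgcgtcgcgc
Mki67: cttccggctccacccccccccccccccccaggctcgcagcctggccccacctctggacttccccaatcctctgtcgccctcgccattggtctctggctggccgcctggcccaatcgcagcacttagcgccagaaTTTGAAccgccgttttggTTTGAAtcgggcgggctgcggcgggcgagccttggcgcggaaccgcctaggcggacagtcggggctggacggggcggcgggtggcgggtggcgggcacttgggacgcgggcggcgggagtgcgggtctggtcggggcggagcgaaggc
The Ezh2 window held 1 E2F word, TTTGGCGC on its own strand from base 4 of the transcript, and no TTTGAA. Pclaf, which encodes a PCNA-associated factor of DNA synthesis, held 1 E2F word, TTTCCCGC on the opposite strand, and no TTTGAA. Top2a and Mki67 held no E2F word and 2 TTTGAA words each. The windows of Cenpf and Ube2c, which were searched but are not shown, held no E2F word and 1 TTTGAA each. Of 32851 promoter windows, 2.26% held at least 1 of the E2F words and 17.9% held TTTGAA. The word CCAAT, searched on both strands and not capitalised, occurred 3 times in the Ezh2 window and at least once in 37.4% of all windows. It occurred 2 times in the Pclaf window, 6 times in that of Top2a and 3 times in that of Mki67. No 2 matches overlapped in the 4 windows shown. A match of letters is a description of the window only.

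After leaving out cells with fewer than 20 transcripts, 152915 RPR2 cells and 340609 CRPR2 cells remained, with medians of 100 and 101 gene transcripts per cell. Of these cells, 9.01% in RPR2 and 47.2% in CRPR2 were NE-gated. The gate was checked with NE genes it did not use. Insm1, Gria2, Ly6h and Neurod1 together averaged 2.52 transcripts per NE-gated cell in RPR2 and 2.46 in CRPR2, against 0.0217 and 0.17 per NE-low cell. The sections shared 8 cell barcodes. Cracd and Rbl2 were not among the genes read. Levels are given as counts per 1000000 gene transcripts of a group of cells (CPM). Rb1 was read at 10393 CPM in NE-gated cells of RPR2 and at 11583 CPM in those of CRPR2, above the 3429 and 4054 CPM of NE-low cells. Trp53 went the other way, at 762 CPM in NE-gated cells of RPR2 and 845 CPM in those of CRPR2. In NE-low cells Trp53 stood at 1757 and 2032 CPM. Where the probes lie relative to the deleted exons is not given in the sources used here, and the genotypes could not be checked from them. All intervals below are 95% intervals that cover counting error only.

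Ezh2 was read far above background in both sections. A total of 32445 Ezh2 transcripts fell in the kept RPR2 cells and 298194 in the kept CRPR2 cells, which is 1991 and 7991 CPM, while the highest of the 20 negative control probes reached 9.93 and 8.43 CPM. NE-gated cells held 45.3% of the Ezh2 transcripts of RPR2 and 70.3% of those of CRPR2. NE-low cells held 50.5% and 17.6%. The CRPR2 section as a whole thus had log2 2.00 more Ezh2 than the RPR2 section, and this difference was 0.44 when the strata by NE gate and cycling state were given the same weight in both sections.

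NE tumor cells had the most Ezh2 of the main strata in both sections. NE-gated cells stood at 8963 CPM (8818 to 9109, 13782 cells) in RPR2 and 11222 CPM (11174 to 11270, 160674 cells) in CRPR2. NE-low cells stood at 1134 CPM (1117 to 1151) and 3489 CPM (3459 to 3519). The level in NE-gated cells was therefore 7.9-fold that of NE-low cells in RPR2 and 3.22-fold in CRPR2. Cells thinned to 50 transcripts each, which removes the effect of depth, carried an Ezh2 transcript in 33.8% of NE-gated RPR2 cells, 40.8% of NE-gated CRPR2 cells, 5.19% of NE-low RPR2 cells and 14.6% of NE-low CRPR2 cells. The unthinned shares were 56.5%, 64.8%, 10.2% and 25.5%. The order of the strata was the same by level and by share.

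The gap between tumor and stroma depended on cycling state. Among cells that were not cycling, NE-gated cells held 5.89-fold more Ezh2 than NE-low cells in RPR2 (5797 against 984 CPM) and 3.71-fold more in CRPR2 (7899 against 2130 CPM). Among cycling cells the ratio was 1.34 in RPR2 (12153 against 9096 CPM) and 1.35 in CRPR2 (13724 against 10152 CPM). Cycling stroma thus lay near the tumor level while resting stroma lay well below it. Cells called resting need not all be out of cycle. Among them, Cenpf stood at 874 CPM in NE-gated and 37.9 CPM in NE-low cells of RPR2. Of 8 listed E2F and cell cycle genes, 5 were at least 2-fold higher in resting NE-gated than resting NE-low cells in each section. Only 1 of the 8 was at least 2-fold lower in each section. The part of cycling cells without Mki67 and Top2a transcripts in the resting gap was not tested. Across the panel, 24.7% of 348 genes in RPR2 and 19.8% of 359 genes in CRPR2 with 100 CPM or more were at least 2-fold higher in NE-gated than in NE-low cells that were not cycling. Ezh2 ranked 53 in RPR2 and 45 in CRPR2 by that ratio, so many panel genes, NE genes among them, had a larger ratio.

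Cycling cells held more Ezh2 than cells that were not cycling, in tumor and in stroma of both sections. In NE-gated cells the ratio was 2.1-fold in RPR2 (log2 1.07, 1.01 to 1.13) and 1.74-fold in CRPR2 (log2 0.80, 0.78 to 0.81). In NE-low cells it was 9.24-fold in RPR2 (log2 3.21, 3.14 to 3.28) and 4.77-fold in CRPR2 (log2 2.25, 2.23 to 2.28). In NE-low cells of RPR2 the log2 ratio was 2.23 with a cycling gate of 1 transcript, 2.58 with Pclaf added to the gate and 2.50 relative to 3 ribosomal protein genes. The larger ratio in stroma came with a lower resting level, while the cycling levels of tumor and stroma were close. Of the cells, 38.2% of NE-gated cells were cycling in RPR2 and 44.9% in CRPR2, against 1.19% and 11.3% of NE-low cells.

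The level climbed in steps with the number of Mki67 and Top2a transcripts. In NE-gated RPR2 cells it was 5797 CPM at 0 transcripts, 7467 at 1, 9799 at 2, 11303 at 3 to 4, 14516 at 5 to 8 and 15273 at 9 or more. In NE-gated CRPR2 cells the same steps read 7899, 9362, 10858, 12883, 15653 and 17945 CPM. In each step the CRPR2 level was above the RPR2 level, and the intervals of the sections did not overlap. In NE-low cells the steps read 984, 2153, 5012, 8244, 12425 and 15577 CPM in RPR2 and 2130, 4570, 6892, 8983, 12795 and 15417 CPM in CRPR2. The intervals of the sections overlapped in NE-low cells with 3 or more Mki67 and Top2a transcripts. With 9 or more, NE-low cells of RPR2 (200 cells) lay within the interval of NE-gated cells of the same section, 14564 to 16009 CPM. In CRPR2 the NE-low cells of this step (1746 cells) lay below the NE-gated cells. Their intervals there were 15006 to 15837 and 17734 to 18158 CPM.

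**Figure D1:**
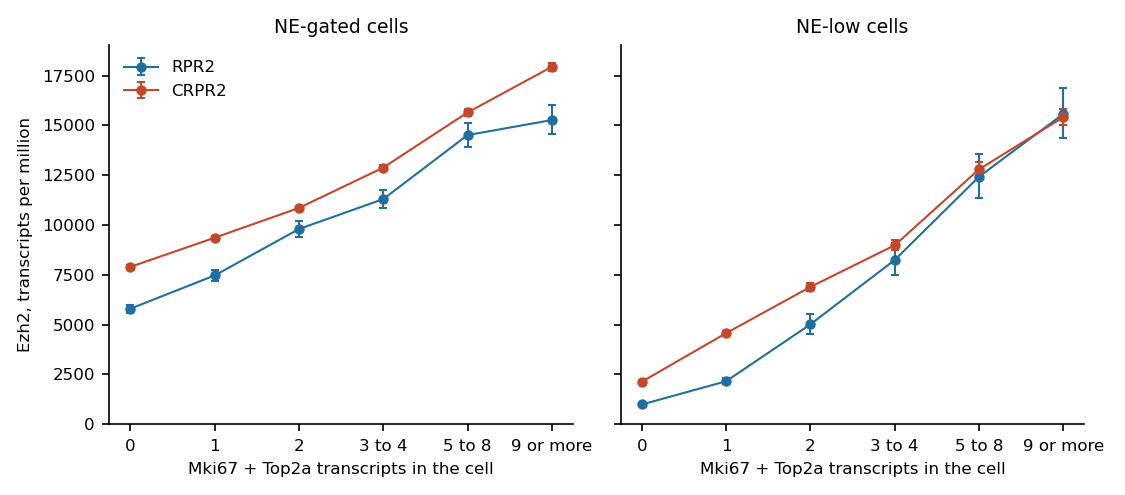
Ezh2 in CPM (linear axis from 0) by the summed count of Mki67 and Top2a in the cell, for NE-gated cells (left) and NE-low cells (right) of RPR2 (blue) and CRPR2 (red). Points are pooled levels with 95% counting intervals; tumor cells start at 5797 and 7899 CPM, stroma at 984 and 2130 CPM, and the stromal curves end at 15577 and 15417 CPM.

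Segmentation by nuclear expansion can assign a neighbor's transcripts to a cell. NE genes outside the gate (Insm1, Gria2, Ly6h and Neurod1) averaged 0.168 transcripts per cycling NE-low cell in RPR2 and 0.453 in CRPR2, against 0.0184 and 0.106 in NE-low cells that were not cycling. The ratio was therefore read again in NE-low cells with 0 transcripts of all 9 NE genes (those 4 and the 5 of the gate), a choice made after the data were seen. Cycling over not cycling was then 9.44-fold in RPR2 (9090 against 963 CPM) and 5.14-fold in CRPR2 (9140 against 1777 CPM). In the 176 RPR2 and 1114 CRPR2 cells of this kind with 9 or more Mki67 and Top2a transcripts, Ezh2 stood at 16042 CPM (14702 to 17472) and 15302 CPM (14793 to 15824). The cycling ratio was thus as large in cells with none of these transcripts. Whether such cells held Ezh2 transcripts of neighboring cells was not tested.

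Ezh2 also varied with the number of NE transcripts, and did so most at the low end. In RPR2 cells that were not cycling, the level was 968 CPM at 0 transcripts of the 5 gate genes, 1597 at 1, 3822 at 2, 4561 at 3, 5524 at 4 to 5, 6172 at 6 to 9, 5701 at 10 to 19 and 5148 at 20 or more. In CRPR2 the same classes read 1856, 4382, 6804, 7596, 8162, 8019, 7576 and 6731 CPM. Above the gate the level was highest at 6 to 9 in RPR2 and at 4 to 5 in CRPR2, and lower in the classes beyond. The highest NE class lay within the interval of the 4 to 5 class in RPR2. In CRPR2 it lay below, at 6731 CPM (6213 to 7281) against 8162 (8003 to 8323). Cycling RPR2 cells stood at 12663 CPM at 4 to 5 and 9672 at 20 or more. For cycling CRPR2 cells these classes read 14546 and 11164.5 CPM. Cells just outside the gate, with 2 or 3 gate transcripts (2623 in RPR2, 42366 in CRPR2), held 4171 and 7184 CPM when not cycling. In CRPR2 this was 1.1-fold below the NE-gated cells.

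**Figure D2:**
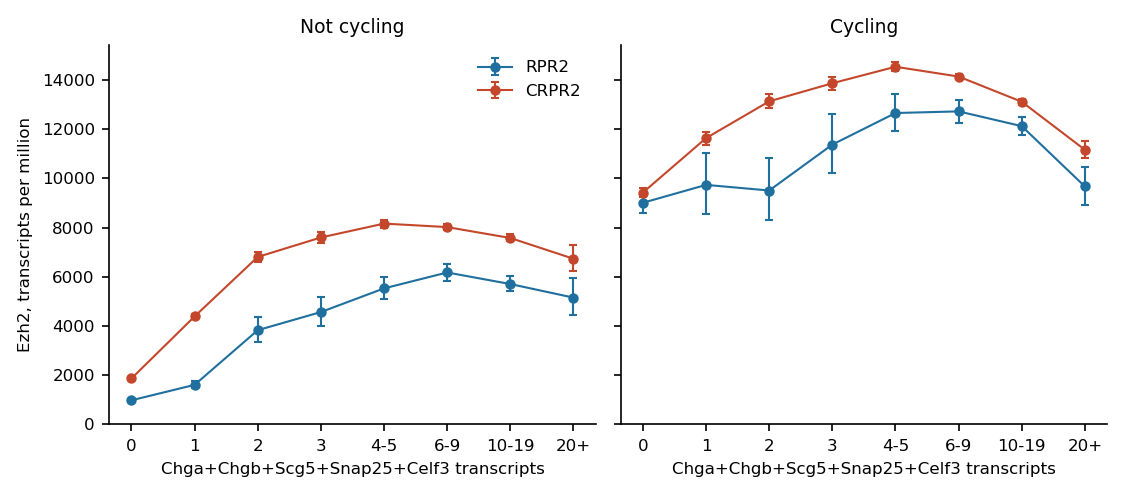
Ezh2 in CPM (linear axis from 0) by the summed count of Chga, Chgb, Scg5, Snap25 and Celf3, for cells that were not cycling (left) and cycling cells (right) of RPR2 (blue) and CRPR2 (red), with 95% counting intervals. Resting cells climb from 968 and 1856 CPM at 0 to 6172 and 8162 CPM at their highest class, and cycling cells start at 9009 and 9425 CPM.

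Between the sections, NE-gated cells of CRPR2 held more Ezh2 than those of RPR2 by log2 0.32 (0.30 to 0.35), a 1.25-fold difference. The difference was log2 0.45 (0.39 to 0.50) in cells that were not cycling and 0.18 (0.14 to 0.21) in cycling cells. In the cells that were not cycling, 8 E2F and cell cycle genes had a median log2 ratio of 0.33, and none reached 2-fold. They ran from Cdkn1a (0.83), Cenpf (0.63) and E2f1 (0.50) to Mdm2 (-0.10). Whether resting NE-gated cells of the sections were alike in cycling state was not tested. Over the 284 genes with 100 CPM or more, 4.93% were at least 2-fold higher in resting NE-gated cells of CRPR2, a size that Ezh2 did not reach. It ranked 59 of 284, against a median log2 ratio of 0.00 and an upper quartile of 0.35. With cycling states weighted alike in both sections, the difference over all NE-gated cells was log2 0.26. NE-gated cells of the sections had near the same mean number of other NE transcripts (2.52 in RPR2 and 2.46 in CRPR2) and near the same median depth (111 and 108 transcripts). They differed in the gate genes, with a mean of 8.93 gate transcripts per resting NE-gated cell in RPR2 and 7.69 in CRPR2.

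The cell type gates were set among NE-low cells, each asking for 3 or more marker transcripts and at least 2 times those of the next type. Gates on fewer than 3 measured markers are called by their genes, and so is the gate on mural markers, since striated and smooth muscle genes such as Myoz2, Pln and Cnn1 led it in both sections (the Acta2 and Des gate). Muscle genes (Myoz2, Tnnc1 and Pln) also stood among the top 10 genes of the fibroblast gate of CRPR2. In the secretory gate of CRPR2, the top 10 genes were 5 of its own markers, 2 ciliated markers, Agr2, Atp6v1b1 and Krt5. Its marker Scgb3a2 was also read in NE-gated cells, where RPR2 gave 12066 CPM and CRPR2 gave 13307. NE-low cells of RPR2 gave 16145 CPM and those of CRPR2 gave 14991. Vwf, a marker of the endothelial gate, gave 17949 CPM in NE-gated cells of RPR2 and 22293 in those of CRPR2, against 5777 in NE-low cells of RPR2. The other markers of that gate were lower in NE-gated than in NE-low cells of RPR2. Sftpb, a marker of the AT2 gate, gave 4265 CPM in NE-gated cells of RPR2 and 6445 in those of CRPR2, against 20679 in NE-low cells of RPR2. Secretory, endothelial and AT2 cells below are thus named by their gate only. Whether some were tumor cells with few NE transcripts was not tested. The gates took in 89796 of 136510 NE-low cells in RPR2 and 78563 of 137569 in CRPR2. Of the gates, NE-gated cells had the highest resting level and the endothelial gate one of the lowest in both sections.

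Resting RPR2 cells of the 11 cell type gates ran from 689 CPM (665 to 715) in the endothelial gate to 1886 CPM (1386 to 2508) in the T cell gate. Macrophages stood at 1782 CPM (1576 to 2007), ciliated cells at 1460 and fibroblasts at 1350 CPM. Neutrophils stood at 1056 CPM, AT2 cells (surfactant-making alveolar cells) at 945, secretory cells at 906, cells of the Ager gate at 775, mesothelial cells at 735 and cells of the Acta2 and Des gate at 729 CPM. Of the 11 pairs of neighbours in this order, NE-gated cells included, only NE-gated and T cells had intervals that did not overlap.

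Resting CRPR2 cells of 12 cell type gates ran from 629 CPM (272 to 1240) in a cartilage gate, which was empty in RPR2, to 5058 CPM (4349 to 5848) in the T cell gate. Secretory cells stood at 2406 and AT2 cells at 2315 CPM. Ciliated cells followed at 1911, fibroblasts at 1769, neutrophils at 1716, macrophages at 1664, the Acta2 and Des gate at 1516, the endothelial gate at 1385, the Ager gate at 1175 and mesothelial cells at 1173 CPM. Among the 12 pairs of neighbours, 3 had intervals apart, namely NE-gated and T cells, T cells and secretory cells, and AT2 and ciliated cells. NE genes outside the NE gate averaged 0.0263 transcripts per resting T cell and 0.162 per resting secretory cell in CRPR2, and 0.0142 and 0.0283 in RPR2.

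**Figure D3:**
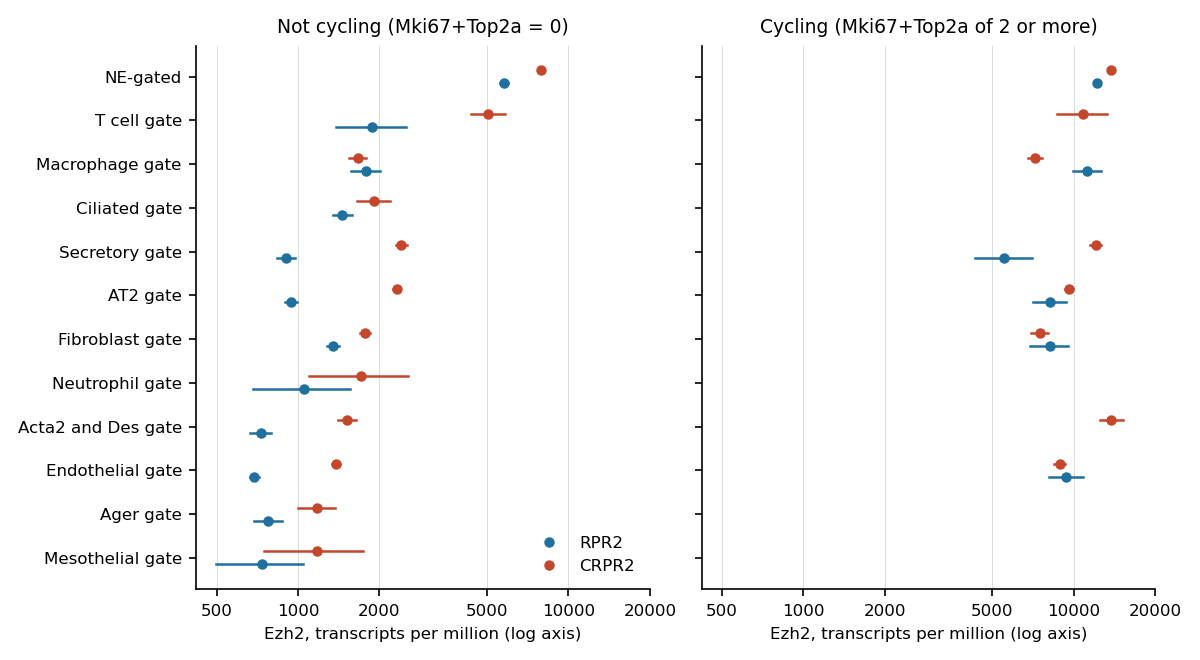
Ezh2 in CPM (log axis) in NE-gated cells and 11 cell type gates of NE-low cells, not cycling (left) and cycling (right), in RPR2 (blue) and CRPR2 (red), for groups of 50 cells or more. Bars are 95% counting intervals; resting stroma lies between 689 and 5058 CPM, below the 5797 and 7899 CPM of NE-gated cells, and the cycling stromal gates lie between 5537 and 13743 CPM.

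In every stromal gate with 50 or more cells in both states, cycling cells held more Ezh2 than resting cells. In the 5 RPR2 gates with 50 or more cells in both states the cycling ratio ran from 6.03-fold in fibroblasts to 13.6-fold in the endothelial gate. In the 7 CRPR2 gates it ran from 2.13-fold in T cells to 9.07-fold in the Acta2 and Des gate. Cycling endothelial cells stood at 9378 CPM (162 cells) in RPR2 and 8851 CPM (1450 cells) in CRPR2, AT2 cells at 8165 and 9605 CPM, and fibroblasts at 8140 and 7471 CPM. As ratios, these cycling levels differed less between the sections (log2 -0.08, 0.23 and -0.12) than the resting levels of the same gates (log2 1.01, 1.29 and 0.39). Cycling secretory cells differed more between the sections, with 5537 CPM (87 cells) in RPR2 and 12037 CPM (1450 cells) in CRPR2. Their other NE transcripts averaged 0.368 and 0.643 per cell, and the part of these in the difference was not tested.

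Over the stroma as a whole, NE-low cells of CRPR2 held more Ezh2 than those of RPR2 by log2 1.62 (1.60 to 1.65). The difference was log2 1.11 (1.08 to 1.14) in resting and 0.16 (0.09 to 0.23) in cycling NE-low cells. Across the panel, 23.6% of 351 genes were at least 2-fold higher in resting NE-low cells of CRPR2, so that a difference of this size was not rare there. Of the 8 E2F and cell cycle genes, 3 were at least 2-fold higher in these cells and none 2-fold lower. By gate, 8 of 11 were higher in resting CRPR2 cells by more than counting error, and the intervals of neutrophils, mesothelial cells and macrophages took in 0. Among the 5 gates with 50 cycling cells in both sections, 2 were higher in CRPR2 (AT2 and secretory cells), 1 was lower (macrophages) and 2 spanned 0.

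In NE-low cells with 0 transcripts of all 9 NE genes, the section difference was log2 0.88 (0.85 to 0.92) in resting cells and 0.01 (-0.07 to 0.08) in cycling cells. At rest, 8 of 11 gates were higher in CRPR2 and 3 spanned 0. The resting difference was log2 1.52 in T cells, 1.11 in AT2 cells, 1.05 in the Acta2 and Des gate and 0.85 in endothelial cells, and it moved from 1.41 to 0.98 in secretory cells. It was smaller in the Ager gate (0.55), ciliated cells (0.38) and fibroblasts (0.35), and was -0.13 (-0.34 to 0.08) in macrophages. When cycling, the gates went different ways, with 1 of 5 higher in CRPR2, 2 lower and 2 spanning 0. Secretory cells were higher by log2 1.39 (0.90 to 1.91), macrophages lower by log2 -0.79, and endothelial cells lower by log2 -0.24 (-0.48 to -0.0047). AT2 cells, at log2 0.17 (-0.06 to 0.41), were no longer apart from 0. Whether such cells held RNA of neighboring tumor cells without such a transcript was not tested.

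Macrophages went the other way. Resting macrophages held 1782 CPM in RPR2 and 1664 in CRPR2, a log2 ratio of -0.10 (-0.30 to 0.11). Cycling macrophages held 11229 CPM (9945 to 12632, 165 cells) in RPR2 and 7169 CPM (6744 to 7614, 770 cells) in CRPR2, log2 -0.65 (-0.84 to -0.45). With 0 transcripts of the 9 NE genes the cycling difference was log2 -0.79 (-0.99 to -0.58). Their median depth was 143 transcripts in RPR2 and 186 in CRPR2, and the thinned shares of 36.9% (29.4 to 44.9) and 29.5% (26.2 to 32.8) had overlapping intervals.

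**Figure D4:**
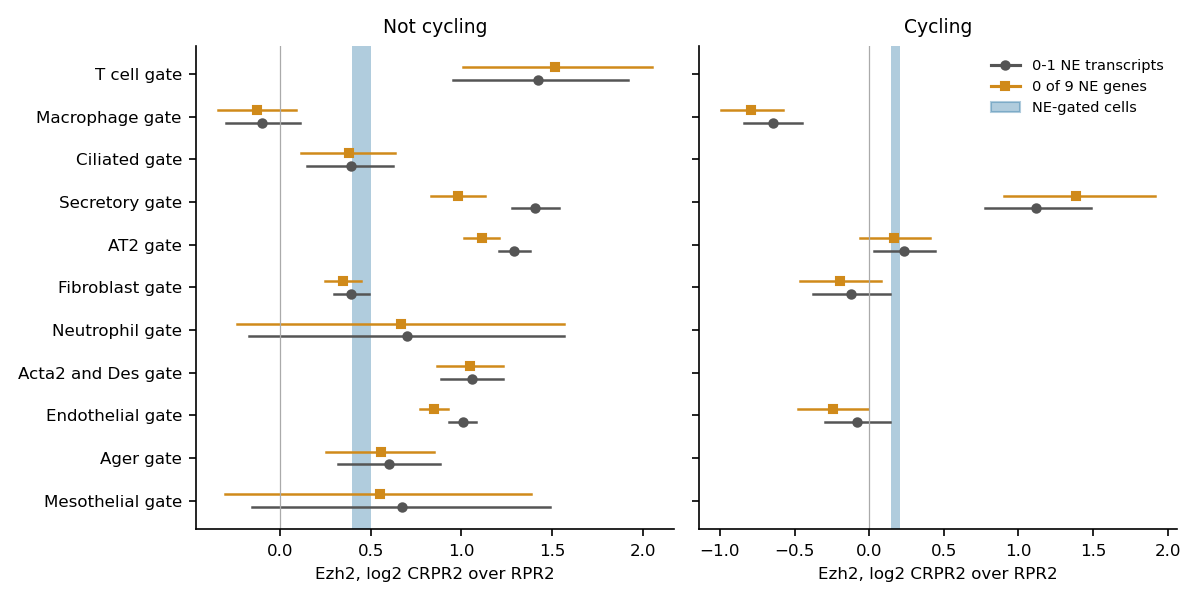
Log2 ratio of the Ezh2 level in CRPR2 over RPR2 by cell type gate for cells not cycling (left) and cycling (right), with 95% counting intervals. Grey circles are NE-low cells, orange squares are those with 0 of all 9 NE genes, and the blue band is the interval of NE-gated cells (0.39 to 0.50 and 0.14 to 0.21); most resting gates lie right of 0 and cycling macrophages lie left of it.

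Among all panel genes, the 5 whose level over 12 gates, NE-gated cells included, was most like that of Ezh2 were Cenpf (mean Pearson r of log2 CPM over the sections 0.96), Top2a (0.92), Mki67 (0.89), Ube2c (0.88) and Chgb (0.87), out of 415 genes. Pclaf came next at 0.86. Cenpf is a kinetochore protein, Top2a a topoisomerase of replicating chromosomes, Mki67 a coat protein of mitotic chromosomes and Ube2c a ubiquitin enzyme of the anaphase promoting complex. Chgb, a secretory granule protein, is 1 of the 5 genes of the NE gate, and so its level over these gates was set in part by the gate itself. The 12 points share their libraries and the share of cycling cells in each gate. In resting cells alone, r with Ezh2 was 0.71 for Cenpf, 0.77 for Ube2c, 0.65 for Pclaf and 0.86 for Chgb.

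In NE-gated cells the cycling ratio of Ezh2 ranked 10 of 284 genes in RPR2 and 10 of 276 in CRPR2. The panel's share of genes at least 2-fold higher in cycling NE-gated cells was 3.87% in RPR2 and 2.54% in CRPR2, and Ezh2 passed 2-fold in RPR2 only. The 5 leading genes in RPR2 were Ube2c (log2 3.28), Cenpf (2.88), Tat (2.17), Aif1l (1.77) and Pclaf (1.75). Of these, Tat passed the limit of 100 CPM only in cycling cells (106 against 22.8 CPM) and was not ranked in CRPR2. In CRPR2 they were Ube2c (2.90), Cenpf (2.43), Pclaf (1.25), Lhx2 (1.19) and Lag3 (1.19). In NE-low cells Ezh2 ranked 10 of 349 genes in RPR2 and 5 of 361 in CRPR2, where 28.4% and 14.1% of genes were at least 2-fold higher in cycling cells.

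**Figure D5:**
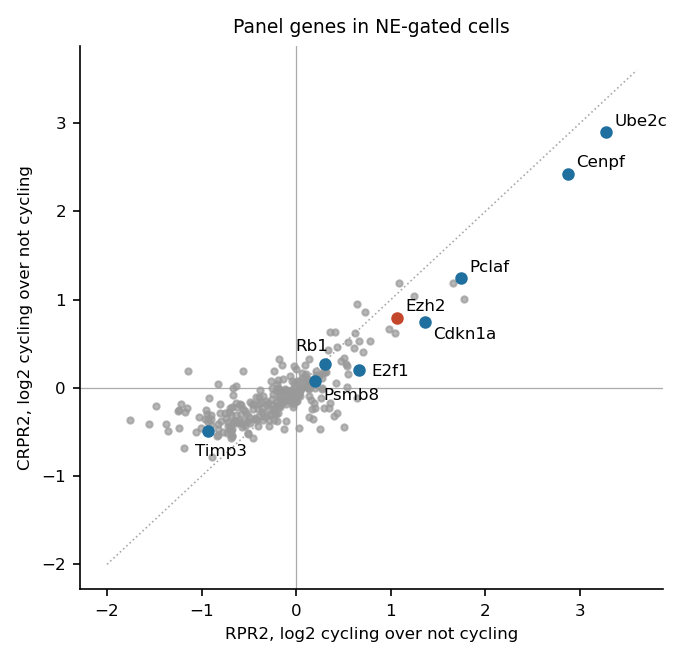
Log2 ratio of cycling over not cycling NE-gated cells in RPR2 (x axis) and CRPR2 (y axis) for the 265 panel genes with 100 CPM or more in both; the dotted line marks equal ratios. Ezh2 (red) lies at 1.07 and 0.80, below Ube2c, Cenpf and Pclaf and above E2f1, Rb1 and Psmb8 (blue).

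None of the 12 other PRC2 and H3K27 methylation genes listed (Eed, Suz12, Ezh1, the Kdm6 demethylases and others) was on the panel. Of 26 E2F and cell cycle genes, 10 were on it, and 8 apart from Mki67 and Top2a could be ranked by cycling ratio. In NE-gated cells 4 of these 8 were at least 2-fold higher in cycling cells of RPR2 (Ube2c, Cenpf, Pclaf and Cdkn1a) and 3 in CRPR2 (Ube2c, Cenpf and Pclaf), with none 2-fold lower. Over all panel genes the share at least 2-fold higher was 3.87% in RPR2 and 2.54% in CRPR2. The median log2 ratio of the 8 genes was 1.01 in RPR2 and 0.51 in CRPR2, beside a panel median of -0.19 and -0.16. E2f1, the E2F activator itself, had log2 ratios of 0.66 and 0.20, and Cdkn1a, the cyclin-dependent kinase inhibitor p21, of 1.36 and 0.74. In NE-low cells 4 of the 8 were at least 2-fold higher in each section, here with E2f1 (log2 2.71 and 1.68) in place of Cdkn1a (0.06 and 0.12). The share over all panel genes was 28.4% in NE-low cells of RPR2 and 14.1% in those of CRPR2.

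Within NE-gated cells of a single cycling state, Ezh2 was set against the presence of these genes, with each cell thinned to 50 transcripts. Resting RPR2 cells with an E2f1 transcript held 0.413 Ezh2 transcripts per thinned cell (855 cells) and those without held 0.269 (4218 cells), log2 0.62 (0.44 to 0.79). The same ratio was log2 0.29 in resting CRPR2 cells, 0.35 in cycling RPR2 cells and 0.14 in cycling CRPR2 cells. Cells with Pclaf held more Ezh2 by log2 0.42 and 0.32 at rest and by 0.45 and 0.37 when cycling, in RPR2 and CRPR2. Cells with Cdkn1a held more by log2 0.50 and 0.33 at rest and by 0.33 and 0.25 when cycling. Of the 8 E2F and cell cycle genes, 4 had intervals above 0 in all 4 groups of cells, namely these 3 and Rb1 (log2 0.10 to 0.28). Cenpf gave log2 0.55 and 0.14 at rest, and -0.01 and 0.18 when cycling. Mdm2, a ubiquitin ligase, gave at most log2 0.16 in any group. Detection of a gene rests on the 50 transcripts drawn per cell, so cells counted as without it may still express it. Cells called cycling ran from 2 to 9 or more Mki67 and Top2a transcripts, over which Ezh2 climbed. The part of this in the ratios of cycling cells was not tested. Cells of 1 section are not replicates.

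The same was read for Insm1, an NE transcription factor, Gria2, a glutamate receptor subunit, and Ly6h, a member of the LY6 protein family, which the gate did not use. Insm1 gave ratios between -0.05 and 0.01 in the 4 groups, with intervals that took in 0. Gria2 gave log2 -0.14 (-0.31 to 0.03) in resting and 0.09 (-0.03 to 0.20) in cycling RPR2 cells, and 0.04 (-0.01 to 0.09) and 0.16 (0.13 to 0.18) in those of CRPR2. Ly6h gave 0.14 (-0.03 to 0.30) in resting and 0.03 (-0.09 to 0.15) in cycling RPR2 cells, and 0.10 (0.05 to 0.15) and 0.09 (0.06 to 0.12) in those of CRPR2. Neurod1 was seen in 5 to 116 cells per group.

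Of the 44 genes that the study scored as EZH2 or PRC2 targets, 2 were on the panel, Timp3 and Twist1. Timp3, an inhibitor of matrix metalloproteinases, was lower in cycling than in resting NE-gated cells, at log2 -0.93 in RPR2 and -0.49 in CRPR2. It did not reach 2-fold and ranked 259 of 284 genes in RPR2 and 260 of 276 in CRPR2 by that ratio. Between the sections, Timp3 was higher in NE-gated cells of CRPR2, as Ezh2 was, by log2 0.54 at rest and 0.99 when cycling. In cells of 50 thinned transcripts, resting NE-gated cells with Timp3 held less Ezh2 than those without by log2 -0.57 (-0.90 to -0.25) in RPR2 and -0.08 (-0.15 to -0.01) in CRPR2. In cycling cells the ratios were -0.44 (-0.76 to -0.15) and -0.17 (-0.22 to -0.12). Timp3 stood at 2063 CPM in resting NE-gated cells and 19557 CPM in resting NE-low cells of RPR2, and at 3004 and 17665 CPM in CRPR2, and the part of stromal transcripts in these ratios was not tested. Twist1 was seen in 5 to 49 NE-gated cells per group and stayed under 100 CPM.

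Of 13 genes of class I antigen presentation, only Psmb8, a subunit of the immunoproteasome, was on the panel. Resting NE-gated cells held 1103 CPM of Psmb8 in RPR2 and 2039 CPM in CRPR2, log2 0.88. Ezh2 and Psmb8 were thus both higher in resting NE-gated cells of CRPR2. Psmb8 was also higher in resting NE-low cells of CRPR2, by log2 0.82. Within resting cells of a section, NE-gated cells with and without Psmb8 differed in Ezh2 by log2 0.12 (-0.21 to 0.44) in RPR2 and -0.01 (-0.08 to 0.07) in CRPR2, and in cycling cells by -0.11 (-0.34 to 0.11) and 0.01 (-0.03 to 0.06). No difference was detectable at this depth.

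The count of Ezh2 per cell was low throughout. After thinning to 50 transcripts, 75.4% of resting NE-gated RPR2 cells and 67.3% of resting NE-gated CRPR2 cells had 0 Ezh2 transcripts, and 0.611% and 0.951% had 3 or more. In cycling NE-gated cells 55.8% and 52.1% had 0 and 3.01% and 3.94% had 3 or more. In resting NE-low cells 95.3% and 90.1% had 0. The most Ezh2 transcripts in any unthinned cell were 15 in RPR2 and 20 in CRPR2.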

How the data were processed

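The authors ran Xenium In Situ on a single FFPE block holding both tumors, with a base panel of 379 genes and 100 custom genes, Ezh2 among the latter, and cells were segmented by nuclear expansion. Per the labels Seurat 4.4.0 was used downstream. The deposited matrices hold raw transcript counts per gene and cell, not normalized, and no cell annotation was used. The members and gene lists were chosen with earlier results of these data known.

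Cells with fewer than 20 gene transcripts were left out (1903 in RPR2, 2236 in CRPR2). Counts were summed over the cells of a gate and divided by their gene transcripts (CPM), with exact Poisson intervals for a level, exact conditional binomial intervals for a ratio and Clopper-Pearson intervals for a share, all at 95%. Segmentation can assign a neighbor's transcripts to a cell. Doublets were not called. Of the lists, 1 gene and 1 cell type gate are not reported here. Thinning drew 50 transcripts per cell without replacement and left out 15856 RPR2 and 34059 CRPR2 cells below that number. Panel ratios used genes with 100 CPM or more in either group and added 0.5 to each count. Likeness was the Pearson r of log2(CPM + 10). Named genes were Ezh2, the listed members, the 5 genes most like it and the 5 with the largest cycling ratio. No p-value was computed, since each genotype had 1 section. The ratio and thinning steps were tested on simulated data. Alternatives changed the minimum depth, each gate, the scale of the level and the thinning. Python 3.11.15, numpy 2.4.6, scipy 1.17.1 and pandas 2.3.3 were used. Promoter windows came from RefSeq tables of GRCm38.p6, matched by symbol.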

Additional observations from a re-analysis of the deposited data

Results flagged for a closer look

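Cycling macrophages held less Ezh2 in CRPR2 than in RPR2 (log2 -0.65), while cycling NE-gated cells held more (log2 0.18). It is listed for the opposite directions of the 2 cell groups under the same contrast, and the difference between them was not tested, since each genotype had 1 section. The cycling macrophages of the sections differed in median depth. As given above, their shares with an Ezh2 transcript after thinning had overlapping intervals.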

How the results depend on the processing

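Of 71 settings tried for the main values, 29 moved the value by less than its counting interval, 42 moved it further and none turned its direction. Of 66 settings for single gates, 21 moved the value further, and 9 of 11 settings added after seeing the data did. The cause of these moves was not tested. In the log2 ratios below, sections are in the order RPR2, CRPR2.

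With mean transcripts per cell in place of CPM, cycling over not cycling was 1.48 and 1.22 in NE-gated cells and 3.51 and 2.49 in NE-low cells, NE-gated over NE-low was 3.15 and 1.77, and CRPR2 over RPR2 in NE-gated cells was 0.29. With the share of cells thinned to 50 transcripts the same ratios were 0.85 and 0.55, 2.82 and 1.96, 2.70 and 1.48, and 0.27. That share ratio was 0.21 after thinning to 100 and 0.20 without thinning. With a cycling gate of 1 transcript, cycling over not cycling was 0.88 and 0.65 in NE-gated and 2.23 and 1.79 in NE-low cells, and with a gate of 4 it was 1.27 and 1.01, and 3.74 and 2.63. With Pclaf added to the gate it was 0.84 in NE-gated CRPR2 cells and 2.58 and 2.15 in NE-low cells.

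An NE gate of 10 gave 0.29 for CRPR2 over RPR2 and 1.64 for NE-gated over NE-low cells of CRPR2. An NE-low gate of 0 gave 3.02 and 1.97 for NE-gated over NE-low and 2.34 for cycling in NE-low cells of CRPR2. Without the gate genes in the total, NE-gated over NE-low was 3.13 and 1.81, and cycling in CRPR2 was 0.83 in NE-gated and 2.31 in NE-low cells. A minimum of 50 transcripts per cell gave 2.33 for cycling in NE-low cells of CRPR2 and 1.74 for NE-gated over NE-low there. Weighting cycling states alike gave 0.26 for CRPR2 over RPR2.

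Relative to 3 ribosomal protein genes, chosen after seeing the data, cycling over not cycling was 1.14 and 0.93 in NE-gated and 2.50 and 2.05 in NE-low cells, and NE-gated over NE-low was 3.29 and 2.11. With NE-low cells that had no transcript of the 9 NE genes, also chosen afterwards, cycling was 3.24 and 2.36 and NE-gated over NE-low was 3.03 and 2.07. The median over cell type gates of CRPR2 was 2093 CPM with 5 marker transcripts, 2430.4 CPM with no margin over the next type and 2177 CPM with an NE-low gate of 0. The largest move of a single gate was in CRPR2 neutrophils, from 2048 to 1245 CPM with 5 marker transcripts. These gate levels took in cells of every cycling state, unlike the resting gate levels given above.

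No paired analysis was possible because each genotype had 1 section, so no section was left out either. Depth limits gates with few cells, such as T cells, neutrophils and mesothelial cells, and all intervals cover counting error only.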
